A study of Homo sapiens with 4 samples.

Results

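The DDX and DHX genes mostly encode members of the 2 large families of RNA helicases named after the amino-acid motifs DEAD and DEAH. They were taken here from a transcript table of an RNA immunoprecipitation sequencing (RIP-seq) experiment on YTHDC1, a nuclear protein that binds N6-methyladenosine in RNA. Members were the rows whose gene symbol began with DDX or DHX followed by a digit, without rows typed as pseudogene or long noncoding RNA. The rule gave 347 transcripts of 52 gene symbols, of 75165 transcripts of 20298 genes in all, or 0.462% of the transcripts and 0.474% of the summed mean normalized counts. Of the 52, 50 had at least 1 protein-coding transcript (34 DDX and 16 DHX genes, 345 transcripts). The other 2 were DDX11L9 and DDX11L10, named for their likeness to DDX11, with 1 processed transcript each at mean normalized counts of 8.71 and 5.13. They passed the rule by transcript type alone, while the like-named DDX11L2 was typed as pseudogene and left out.

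MDA-MB-231 cells, a human triple negative breast cancer line, carried a lentiviral 3x flag-YTHDC1 and had been selected with puromycin, so both groups came from cells that made the tagged protein from a transgene. Cells were crosslinked with UV light of 254 nm, nuclei were isolated and lysed, and 2 libraries were made from anti-Flag immunoprecipitates (IP-YTHDC1) and 2 from input lysate. The value used for each transcript was the authors' mean normalized count over these 4 libraries, IP and input together. The table analysed here holds no value per library, so no error over replicates and no depth per library could be given. The authors' own comparison of IP with input, which the table also holds, was left out by choice, and none was computed anew. Every statement below describes 1 pooled mean with no test.

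RNA helicases use ATP to pry apart short RNA duplexes or to strip proteins from RNA. DEAD-box proteins mostly open duplexes locally, while DEAH-box proteins move along a single strand. Members of both families act at nearly every step in the life of an RNA, from transcription and splicing through export, ribosome assembly and translation to decay and the sensing of viral RNA. Transcripts of these genes are also typed by the annotation. Protein-coding transcripts carry a reading frame, and nonsense-mediated decay (NMD) transcripts carry a premature stop codon of the kind that marks an RNA for decay. Retained intron transcripts keep an intronic sequence, and processed transcripts lack a reading frame without belonging to the other classes.

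The cells' identity was checked in the same pooled means. Of the markers of the line, VIM, AXL, KRT18, CD44 and CAV1 had gene totals from 7624 (CAV1) to 80785 (VIM). Of the genes taken to be low in this line, ESR1 and PGR had no listed transcript and CDH1 stood at 10.0, while ERBB2 stood at 4303. Among markers of other cell types, CD3E and ALB were not listed, and PTPRC (3.81), VWF (10.7) and PECAM1 (102) were low. YTHDC1 itself had a total of 55488 over 6 transcripts, in which transgene and endogenous RNA cannot be told apart.

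The member transcripts had mean normalized counts from 3.13 to 8792. A gene total, the sum over a gene's listed transcripts, ran from 5.78 (DDX25) to 13309 (DDX24). Totals were not divided by transcript length, so their order is an order of reads and not of RNA molecules. The median total of the 50 genes was 2077 (quartiles 1021 and 4626), beside a median of 624 (quartiles 158 and 1809) over all 13631 genes with a protein-coding transcript, and 77.9% of those genes had a total below the helicase median. Of the 50 genes, 37 had a total of at least 1000, 10 of at least 5000, and 1 lay under 100. The 10 highest genes held 47.7% of the family total of 158101, and 11 genes were enough to reach 50% of it.

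**Figure D1:**
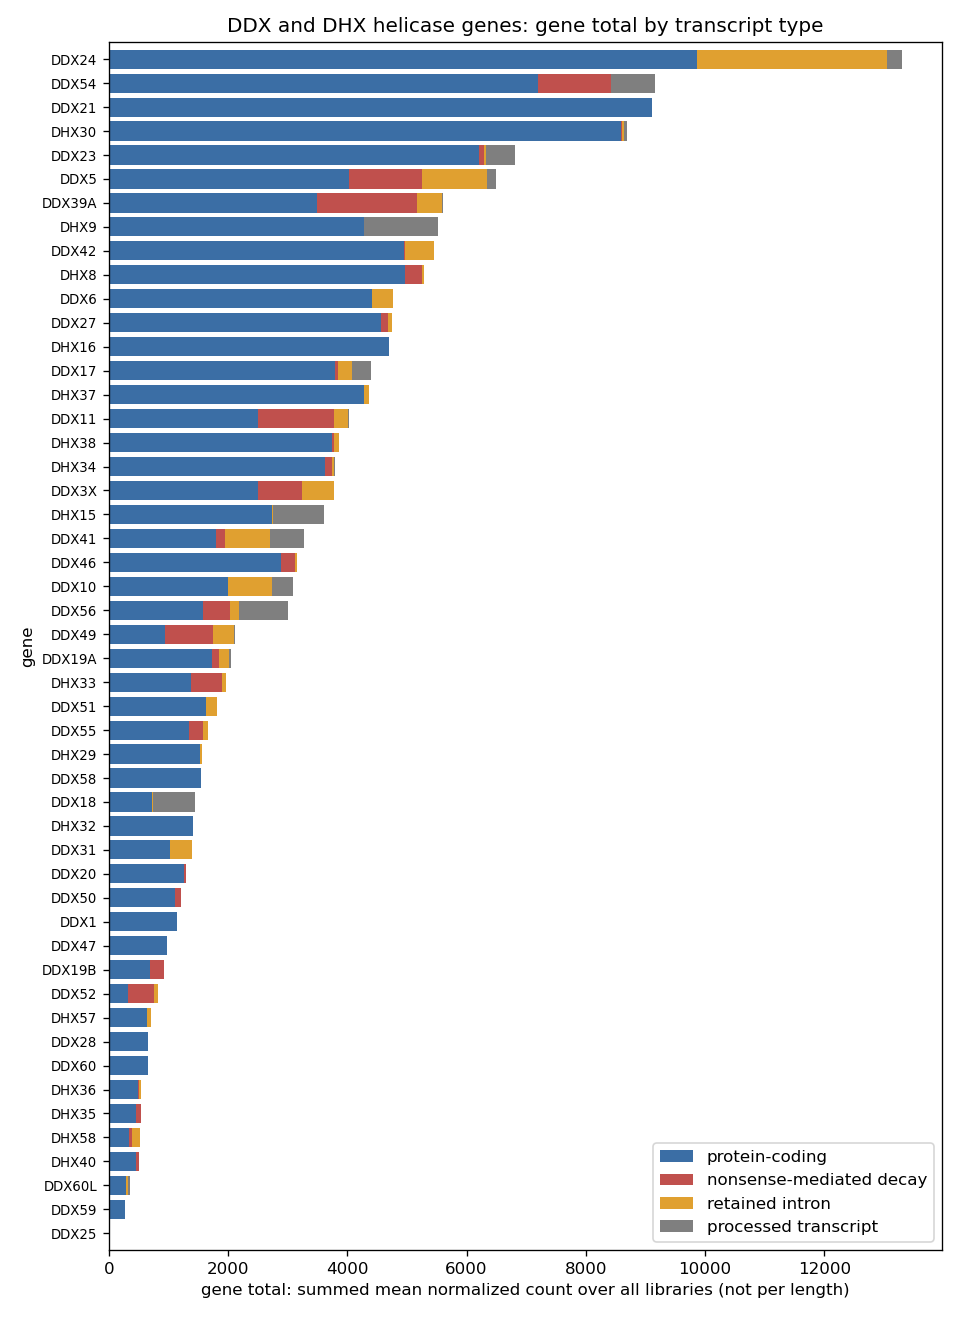
Gene total (summed mean normalized count over all libraries, not per length, horizontal axis) of each DDX and DHX gene with a protein-coding transcript, with the bar divided by transcript type. DDX24 stands highest at 13309, followed by DDX54, DDX21 and DHX30 between 8695 and 9157, and DDX25 at 5.78 is too small to be seen.

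Helicases of ribosome assembly formed the largest role group, with 16 genes, 94 transcripts and 38.1% of the family total. DDX24, a nucleolar helicase, lay highest at 13309 and at chr14:94048287-94081202 (GRCh38.p14). Its main protein-coding transcript DDX24-205 had a mean normalized count of 7633 (57.3% of the gene total). A retained intron transcript, DDX24-206, came second at 3066 (23.0%), the highest of any member transcript without the protein-coding type. DDX54 followed at 9157, divided over 3 protein-coding transcripts of 4022, 1608 and 1548 and an NMD transcript, DDX54-208, of 1231.

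DDX21, which links transcription by RNA polymerases to ribosomal RNA processing, had a total of 9115 and was of the opposite kind. It had 2 listed transcripts, both protein-coding, and DDX21-201 alone held 96.5%. DHX37, a helicase of small-subunit maturation, likewise had 97.9% of its total of 4365 in DHX37-201. DDX27, needed for maturation of large-subunit ribosomal RNA, stood at 4748. Gene totals within the ribosome group therefore came from 1 transcript in some genes and from several in others.

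At the low end of the ribosome group, DDX52 had a total of 815, and it held the smallest protein-coding share of the 50 genes at 38.8%. Its only protein-coding transcript, DDX52-213, had 316, and 3 NMD transcripts had 203 (DDX52-215), 177 (DDX52-210) and 64.7 (DDX52-209), together 54.4% of the gene. DDX49 was the other gene with under 50% of its total in protein-coding transcripts (44.4%). Such genes were thus 2 of 50 (4.0%), beside 9.91% of all genes with a protein-coding transcript. The difference rests on few genes and was not tested. DDX49-201 had 935, beside NMD transcripts DDX49-214 at 480 and DDX49-213 at 316. The most abundant single transcript was still protein-coding in both genes, as it was in all 50 (89.9% of all genes with a protein-coding transcript).

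Other genes of ribosome assembly put a sizeable share into transcripts of other types. DDX10 had 23.8% of a total of 3091 in retained intron transcripts, nearly all in DDX10-208 at 730. DDX31 had 25.9% of 1388 in that type, with DDX31-203 at 288. DHX33 had 26.7% of 1958 in the NMD transcript DHX33-204 at 522. In DDX18 the protein-coding DDX18-201 at 723 and the processed transcript DDX18-204 at 715 were nearly equal. DDX56 had 27.5% of 3010 in processed transcripts, with DDX56-212 at 426. DDX51 at 1813, DDX55 at 1662 and DDX47 at 978, also of ribosome assembly, were mainly protein-coding, with 89.8%, 80.6% and 99.0% of their totals in that type.

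Spliceosomal helicases made up the second group, with 9 genes, 71 transcripts and 23.2% of the family total, of which 88.4% was protein-coding. DDX23, the human Prp28 that exchanges U1 for U6 at the 5′ splice site, lay highest at 6819, with 88.7% in DDX23-201. DDX42, a helicase of the U2 particle, stood at 5458 and was spread over 4 protein-coding transcripts of 2170, 1368, 605 and 541. DHX8, the human Prp22 that releases spliced mRNA, had a total of 5281 in a nearly even pair, DHX8-202 at 2777 and DHX8-201 at 2122. DHX16, the human Prp2, stood at 4702, and DHX38, the human Prp16, at 3853.

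DHX15, the human Prp43 that takes the spliceosome apart, had 75.9% of 3606 in DHX15-201, and processed transcripts held 23.9%, among them DHX15-207 at 646. DDX41, a spliceosomal C-complex helicase also known for inherited leukaemia risk, had the most mixed make-up of the group. Its 16 transcripts split a total of 3275 into 54.9% protein-coding, 23.0% retained intron, 17.5% processed and 4.64% NMD. The retained intron transcript DDX41-223 had 565 and the protein-coding DDX41-201 had 1709. DDX46, the human Prp5, stood at 3147 with 91.8% in protein-coding transcripts, and DHX35 was the lowest of the splicing group at 545.

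The group of mRNA export held 3 genes and 5.42% of the family total, and 23.6% of its summed mean was in NMD transcripts. DDX39A, a helicase of the export machinery, made most of this. Its total was 5603, with DDX39A-201 at 3452 and the NMD transcript DDX39A-202 at 1468, the highest NMD transcript among the members. DDX19A and DDX19B encode close copies of the helicase that strips proteins from mRNA at the nuclear pore. DDX19A had 2046, of which 83.6% lay in DDX19A-201. DDX19B had 926 in a near-equal pair, DDX19B-202 at 349 and DDX19B-201 at 340, with a further 25.3% in NMD transcripts.

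Helicases grouped under transcription and ribonucleoprotein assembly comprised 4 genes and 11.2% of the family total. DDX5 and DDX17 are paralogous coregulators of transcription and splicing, and DHX9 unwinds double-stranded RNA and R-loops. DDX5 had 22 listed transcripts with a total of 6495, of which 62.0% was protein-coding, 18.7% NMD and 16.9% retained intron. DDX5-210 had 2746, followed by the NMD transcript DDX5-218 at 660 and the retained intron transcript DDX5-209 at 621. DDX17, at 4397 over 8 transcripts, was 86.3% protein-coding, with 1.03% in NMD and 5.36% in retained intron transcripts. The 2 paralogues thus differed in these pooled shares, though reads that fit both were divided by estimation.

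DHX9 had a single protein-coding transcript, DHX9-201 at 4275, and 4 processed transcripts with 22.6% of its total of 5524. DDX20, known as Gemin3 of the SMN complex, was the lowest gene of the transcription group at 1299. Of the helicases of translation and decay (5 genes, 9.15% of the family total), DDX6, which represses translation and promotes decapping, lay highest at 4773. DHX34, a factor of nonsense-mediated decay itself, stood at 3799 with 95.3% in DHX34-201. DDX3X, which helps initiation on structured leaders, had 15 transcripts and a total of 3783, with 19.8% in NMD and 14.2% in retained intron transcripts. Its main transcript DDX3X-262 had 1845 and the retained intron transcript DDX3X-222 had 458. DHX29, a scanning helicase, stood at 1559, and DHX36, which resolves G-quadruplexes, was lowest at 546.

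**Figure D2:**
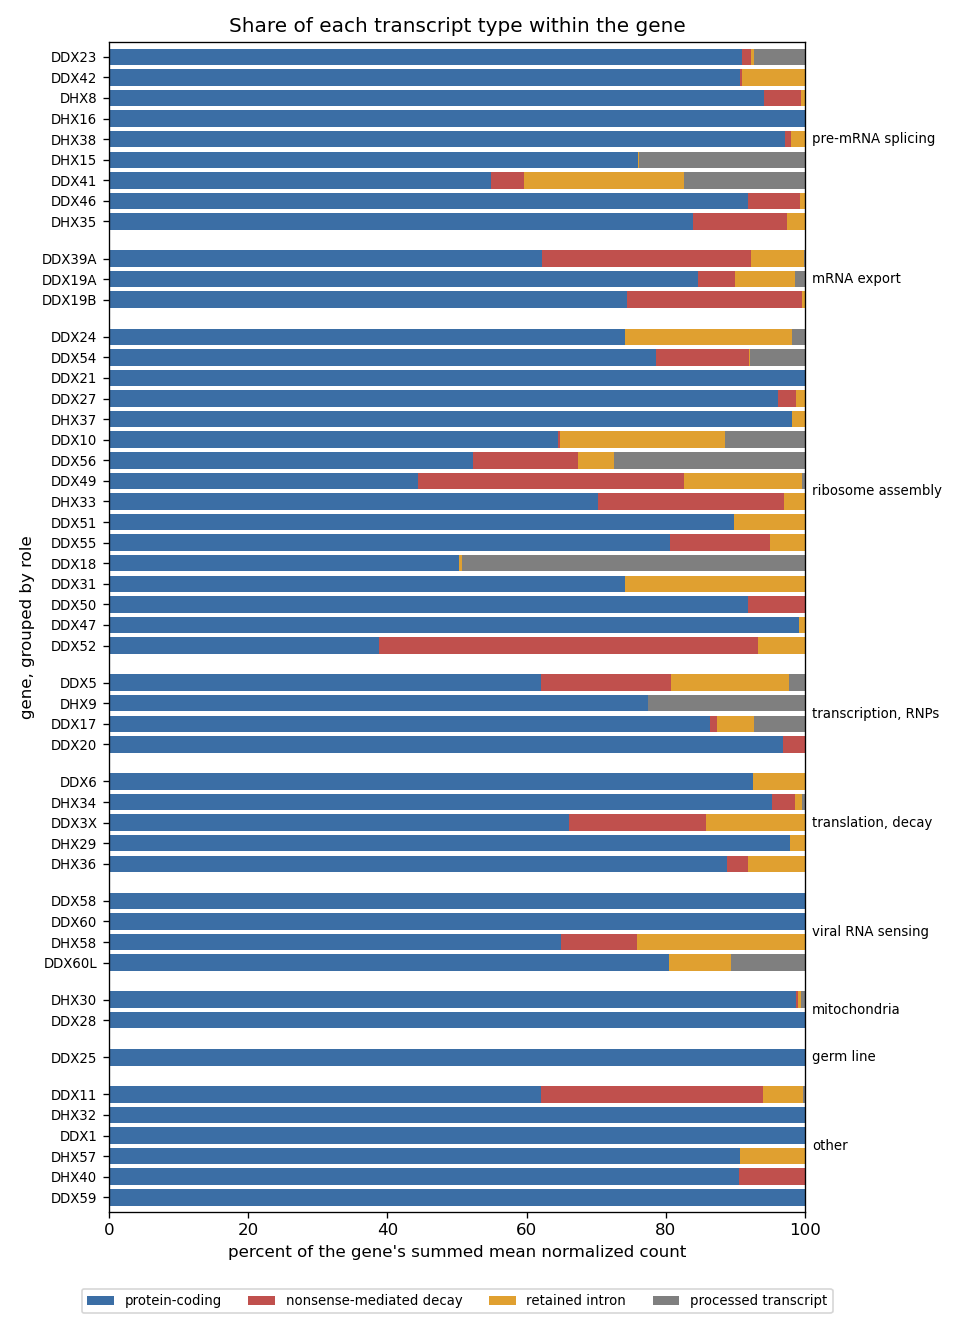
Percent of each gene's summed mean normalized count (horizontal axis) in protein-coding, nonsense-mediated decay, retained intron and processed transcripts, for the 50 genes grouped by role. DDX52 and DDX49 lie under 50% protein-coding, while DDX21, DHX32 and DDX58 are among the genes with bars close to or at 100% protein-coding.

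The 2 helicases placed with mitochondria held 5.92% of the family total, 98.8% of it protein-coding. DHX30, a helicase of mitochondrial ribosome assembly, carried most of it with a total of 8695, of which 84.9% lay in DHX30-207, and DDX28 had 661 in its only listed transcript. The sensors of viral RNA held 1.94%. DDX58, which encodes RIG-I, had 1550 in 2 protein-coding transcripts, and the interferon-induced DDX60 had 653 in 1 transcript. DHX58, which encodes LGP2, had a total of 517, and the retained intron transcript DHX58-204 at 108 made up 20.8% of it. DDX60L, the neighbour and paralogue of DDX60, was lowest of the sensors at 354 over 8 transcripts.

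Of the helicases with other roles, DDX11, a DNA helicase of sister chromatid cohesion, had the most listed transcripts of any member, 28. Its total of 4020 was spread widely, with 28.4% in DDX11-201 at 1143, 14.8% in the NMD transcript DDX11-218 at 594, and 31.9% in NMD transcripts altogether. Counted by evenness (the inverse of the summed squared shares), DDX11 had 6.77 effective transcripts, beside a median of 1.82 over the 50 genes. DDX11 has near-identical copies in the genome, of which DDX12P was listed with a mean of 614, so the division of reads between them is uncertain. DHX32 stood at 1402, DDX1, a helicase of tRNA ligation, at 1150, DHX57 at 700 and DHX40 at 502. DDX59 was lowest of this group at 267.

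DDX25, a testis helicase, was the only germ line helicase with a listed transcript and had a mean of 5.78. Of 54 protein-coding DDX and DHX genes considered in RefSeq, 4 had no listed transcript, among them DDX4, DDX43 and DDX53, which are known from germ cells and testis. The other was DDX3Y. Transcripts that reached 5 reads in fewer than 50% of the libraries had been removed by the authors, so an unlisted gene had few reads and was not shown to be silent.

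The listed transcripts were of other types than protein-coding more often in the helicases than over all genes. Protein-coding transcripts were 40.9% of the 345 (141) beside 60.2% over all genes with a protein-coding transcript. Retained intron transcripts were 30.1% (104) beside 17.1%, NMD transcripts 18.3% (63) beside 9.46%, and processed transcripts 10.7% (37) beside 13.1%. By summed mean normalized counts the gap was smaller. The helicases had 82.7% in protein-coding transcripts beside 87.7%, 6.61% in NMD transcripts beside 4.04%, 6.45% in retained intron transcripts beside 4.15%, and 4.25% in processed transcripts beside 4.00%. The retained intron sum of the helicases was 10204, of which DDX24-206 alone held 3066. No test of these differences was made.

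**Figure D3:**
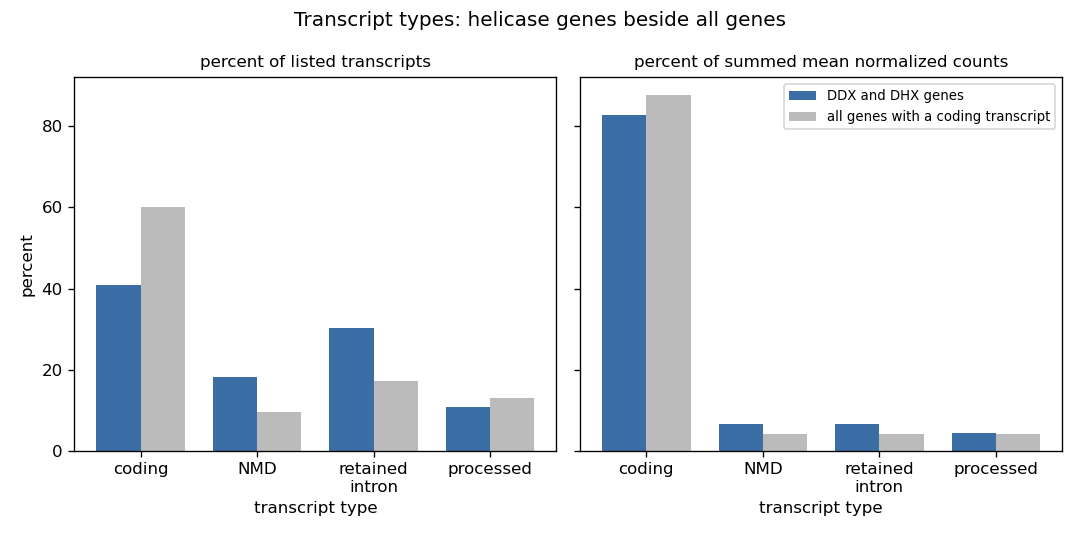
Percent of listed transcripts (left) and of summed mean normalized counts (right) by transcript type, for the DDX and DHX genes and for all 13631 genes with a protein-coding transcript. Retained intron transcripts are 30.1% of the helicases' listed transcripts beside 17.1%, and 6.45% of their counts beside 4.15%. DDX24-206 alone holds 3066 of the helicases' 10204 retained intron counts.

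A transcript was listed only if it passed the authors' minimum of 5 reads, and the helicases had higher totals than most genes. The part of read level in the differences of type was not tested. Of the 50 helicase genes, 37 (74.0%) had a listed retained intron transcript, beside 38.5% of all genes with a protein-coding transcript, and 29 (58.0%) had an NMD transcript, beside 29.1%. Among genes with a total of at least 1000, the shares were 78.4% of the 37 helicases beside 55.3% of 5302 genes for retained intron transcripts, and 62.2% beside 36.3% for NMD transcripts. In this range the helicases still had the higher median total, 3783 beside 2376, so read levels were not matched. The median number of transcripts per gene at such totals was 7 beside 6, and over all totals it was 6 beside 4. Large shares were less marked. An NMD share of at least 20% was found in 6 of the 50 genes (12.0%, beside 10.3%), and a retained intron share of at least 20% in 5 (10.0%, beside 7.67%). At totals of at least 1000, a protein-coding share under 50% was found in 1 of 37 helicases (2.7%, beside 7.71%). These 37 are part of the same 50 genes, and a difference resting on so few genes was not tested.

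The division of the summed means differed between the 34 genes with DDX symbols and the 16 with DHX symbols. This is a split by symbol and not by protein family, and the DDX part includes DDX11, a DNA helicase. Retained intron transcripts held 8.68% of the DDX total and 1.28% of the DHX total, and NMD transcripts held 8.38% and 2.50%. Protein-coding transcripts held 78.8% of the DDX and 91.6% of the DHX total. The median share of the most abundant transcript was 64.5% in DDX and 78.6% in DHX genes. The retained intron sum of the DDX genes rested in good part on DDX24-206, which alone had 3066 of 9596.

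Transcripts of the 4 types overlapped widely in level. The median mean normalized count was 295 for protein-coding, 69.5 for processed, 61.3 for NMD and 24.9 for retained intron transcripts of the helicases, beside 91.0, 27.1, 43.3 and 22.7 over all genes with a protein-coding transcript. Of the 104 retained intron transcripts, 22 lay under 10 and 17 reached 100, while 92 of the 141 protein-coding transcripts reached 100. At least 1000 was reached by 40 protein-coding transcripts, 2 NMD transcripts (DDX39A-202 and DDX54-208) and 1 retained intron transcript (DDX24-206). A transcript without the protein-coding type ranked second in 24 of the 47 genes with 2 or more transcripts. The same share over all genes was not computed, so it is not known whether this count is particular to the helicases.

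**Figure D4:**
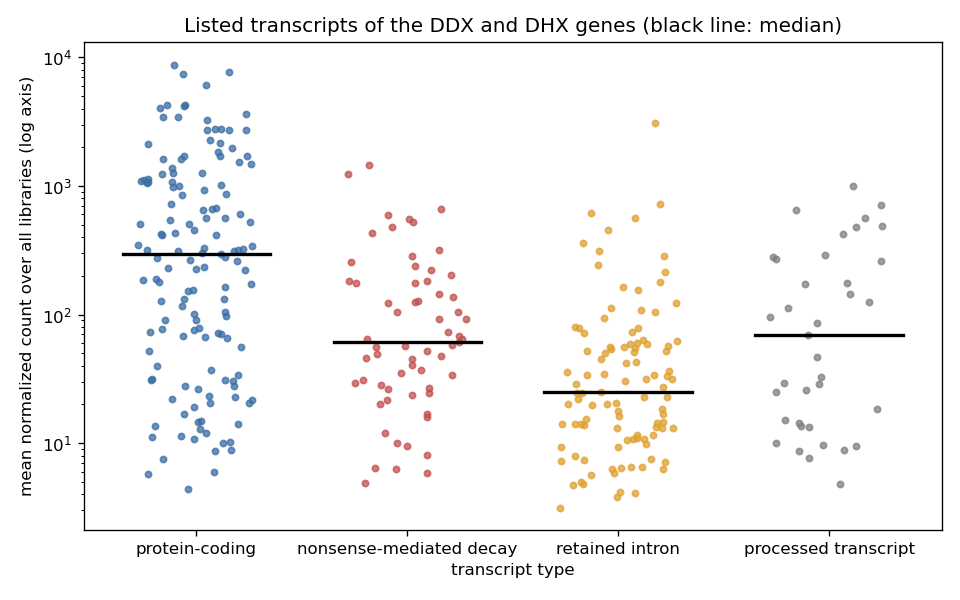
Mean normalized count over all libraries (log axis) of each listed transcript of the 50 DDX and DHX genes, by transcript type, with the median as a black line. Medians run from 295 in protein-coding to 24.9 in retained intron transcripts, and the highest retained intron point is DDX24-206 at 3066.

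The most abundant transcript held a median of 69.7% of its gene's total (quartiles 51.9 and 88.9), close to the 65.9% over all genes with a protein-coding transcript. It held under 50% in 12 genes (24.0%, beside 27.4%). These shares are of counts assigned by estimation among overlapping isoforms of unequal length, so a share of counts is not a share of molecules.

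By position, 50 of 50 genes were matched to RefSeq on GRCh38.p14, and chromosomes 12 and 17 held 7 genes each. Within 100 kb of each other lay 3 pairs, each of them paralogues. DDX50 and DDX21 on chromosome 10 (chr10:68901315-68946847 and chr10:68956170-68985068) were 9.32 kb apart and had totals of 1207 and 9115. DDX19B and DDX19A on chromosome 16, 11.6 kb apart, had 926 and 2046. DDX60 and DDX60L on chromosome 4, 30.8 kb apart, had 653 and 354.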

How the data were processed

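RNA from 2 IP and 2 input libraries was sequenced and, per the paper's methods, mapped by the authors with STAR 2.7.2b to GENCODE transcripts (GRCh38 per the labels) and quantified with RSEM 1.2.31. Transcripts reaching 5 reads in fewer than 50% of samples were removed by the authors, who corrected batches with RUVSeq and compared the groups with DESeq2. The deposited signal column is the authors' mean normalized count per transcript over all libraries. The other 4 numeric columns hold the authors' own comparison (log2 fold change, its standard error, p-value, adjusted p-value) and were not used. No column held 1 sample (0 columns), so depth per library is unknown and intervals cannot be given.

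Members, role lists and comparisons were chosen with earlier results of these data known. 1 gene is not reported here. Transcript means were summed per gene and type with python 3.11.15 and pandas 2.3.3 on all rows, and the summing was tested on simulated data. Genes named were those with the highest and lowest totals in each role group and up to 3 more by total, the 5 with most transcripts, and, chosen after values were seen, genes with at least 20% of their total in 1 other type, single transcripts of note and near copies. The planned choice by level per 1000 coding bases was not applied, because transcript lengths were not used here. Positions are RefSeq's on GRCh38.p14.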

Additional observations from a re-analysis of the deposited data

How the results depend on the processing

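Of 347 member transcripts, 304 had a mean normalized count of at least 10, 150 of at least 100, and 141 were protein-coding, while the number of genes stayed between 49 and 52. With a minimum of 100, the protein-coding share of the summed means was 84.9%, the NMD share 5.95%, the retained intron share 5.13% and the processed share 4.04%. Counting listed transcripts in place of summed means gave 40.9%, 18.3%, 30.1% and 10.7%. The most abundant transcript held a median of 89.5% when protein-coding transcripts alone were counted. The helicases' median total lay above 84.9% of all genes and above 72.5% of genes with a total of at least 100. Of the 10 highest genes, 7 remained with protein-coding transcripts alone (DDX39A, DDX5 and DHX9 left) and 7 with the most abundant transcript alone (DDX42, DDX5 and DHX8 left). The comparison at totals of at least 1000 was added after seeing the data.

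The alternatives for IP against input (edgeR, DESeq2, leaving out each replicate) and the scale per 1000 coding bases were not run. No paired analysis was possible because the table holds no value per library. The pooled means cannot separate RNA bound by YTHDC1 from RNA in the input, and reads shared by isoforms or paralogues were divided by estimation.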

Other observations

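Rows with DDX or DHX symbols that were typed as pseudogene or long noncoding RNA numbered 9, from 7 genes. The highest was DDX12P-201, a pseudogene copy of DDX11, at a mean normalized count of 614. The antisense gene DDX11-AS1 had transcripts at 27.2, 24.2 and 13.8. DDX50P1-201 had 46.7, and the other 4 rows lay between 3.90 and 8.53.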
